A study of Mus musculus with 3 samples.

Results

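Osteopontin, the secreted matricellular protein encoded by Spp1, and the receptors that bind it were followed across the cell classes of 3 mouse livers. The 8 genes were taken by name from the known biology of osteopontin, though with earlier results of these data known. They were Spp1 itself, Cd44, the integrin α chains Itgav, Itga9 and Itga4, and the integrin β chains Itgb1, Itgb3 and Itgb5. All 8 were present among the 32285 features of the count tables.

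Osteopontin is a phosphorylated glycoprotein of bone, milk and inflamed tissue that acts on cells from the extracellular space. In liver it is known as a product of bile duct epithelium, of scar-associated macrophages and of activated stellate cells. Its Arg-Gly-Asp motif is bound by integrins that pair the Itgav chain with Itgb1, Itgb3 or Itgb5, and a neighboring stretch that thrombin cleavage exposes is bound by Itga9 or Itga4 paired with Itgb1. CD44, the hyaluronan receptor of leukocytes and activated epithelium, was described as a receptor for osteopontin as well.

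The stretch of Spp1 that both integrin families recognize is shown because it is where the α and β chains followed here meet the ligand. It lies on the plus strand of chromosome 5, at chr5:104439457-104439513 of GRCm38, inside coding exon 7 of 8 of transcript ENSMUST00000086833.12. The 57 bases are printed 5′ to 3′ in coding order, with the Arg-Gly-Asp codons in capitals (104439481 to 104439489).
Spp1 coding sequence: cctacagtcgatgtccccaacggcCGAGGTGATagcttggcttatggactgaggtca
The arginine is codon 145 of a reading frame of 295 codons, which holds 1 Arg-Gly-Asp motif, and the 7 codons that follow the motif encode the segment recognized by the Itga4 and Itga9 integrins. Of 7 coding transcripts of Spp1 in GENCODE M21, 5 contain the whole stretch. The libraries counted transcripts by their 3′ ends and did not read these codons, so the splice form and the cleavage of the protein were not measured.

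The Spp1 gene (ENSMUSG00000029304) spans chr5:104435118-104441050 on the plus strand and shares same-strand sequence with the annotated gene Gm42793, so reads in the shared part are uncertain between them. Cd44 (ENSMUSG00000005087) spans chr2:102811141-102901665 on the minus strand. Itgav lies at chr2:83724397-83806916 and Itga4 at chr2:79255426-79333123, both on the plus strand, and Itga4 overlaps Cerkl on the opposite strand. Itga9 lies at chr9:118606690-118901003, Itgb1 at chr8:128685654-128733200, Itgb3 at chr11:104608000-104670476 and Itgb5 at chr16:33829665-33949338, all on the plus strand.

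The 3 livers came from male C57BL/6 J mice, of which 1 was normal (ND, n = 1) and 2 had fibrosis with metabolic dysfunction-associated steatohepatitis (MASH; STZ-HFHC, n = 2). Nuclei were isolated from the frozen tissue and their RNA was counted nucleus by nucleus (sNuc-Seq). The STZ-HFHC mice had received 0.2 mg streptozocin (STZ), which destroys pancreatic islets, at 3 days of age and a high-fat, high-cholesterol (HFHC) diet from 4 weeks of age. The question asked here was which liver cells held RNA for the ligand and for each receptor chain, and how these levels differed between the diseased livers and the normal one. With 1 ND mouse there is no spread between normal animals, and no sequenced mouse received STZ or the diet alone. The library codes differ between ND and STZ-HFHC, and the labels do not say what the codes mark. Condition, mouse and whatever the codes mark cannot be told apart.

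After the limits on genes and mitochondrial counts, 8494, 8921 and 10921 nuclei remained in ND, STZ-HFHC 1 and STZ-HFHC 2, with median depths of 4068, 3015 and 4027 unique molecular identifiers (UMIs, the count of distinct transcripts captured). Pairs of libraries shared 20 to 27 barcode sequences among these nuclei. Clustering, with the 8 genes left out, gave 8 classes named from marker lists and a remainder of 1007, 3522 and 3340 nuclei whose leading genes gave no clear name. The cholangiocyte-like class, the smallest, held 32, 98 and 128 nuclei. Its summed cholangiocyte markers reached 3662, 9181 and 5716 CPM (UMIs of a gene or list divided by all UMIs of the class, scaled to a fixed total), with Krt19 undetected in both STZ-HFHC libraries. In monocyte-like nuclei 5 of 8 markers were detected in ND, where Ly6c2, Chil3 and Vcan were at 0. In the hepatocyte-like, endothelial-like and macrophage-like classes nuclei of ND and STZ-HFHC mostly lay in separate clusters. Cluster 21, which was hepatocyte-like, held at least 20 nuclei of each liver. Most ND nuclei of the stellate or fibroblast-like class also lay apart.

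Hepatocyte transcripts were counted in every class. Over the 7 other named classes the 10 hepatocyte markers summed to 16236 to 21367 CPM in ND, against 7531 to 14402 in STZ-HFHC 1 and 10563 to 16332 in STZ-HFHC 2. In hepatocyte-like nuclei the sums were 22678, 20197 and 19870 CPM. In each of the 7 classes ND was above both STZ-HFHC livers. The share of hepatocyte RNA thus moved with condition in the classes compared below, and its part in their ratios was not tested beyond the limit on these markers given with the results.

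Levels below are sums of UMIs over a class and library, given as CPM, and are listed in the order ND, STZ-HFHC 1, STZ-HFHC 2. Intervals are exact 95% intervals that cover counting error only. Levels are compared for 1 gene between classes or libraries and never between genes, since the counts are not scaled to capture of different transcripts.

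Spp1 RNA was concentrated in cholangiocyte-like nuclei in each of the 3 livers. The ND level there was 181 CPM (115 to 272, 23 UMIs), that of STZ-HFHC 1 was 976 CPM (873 to 1089, 323 UMIs) and that of STZ-HFHC 2 was 194 CPM (149 to 248, 64 UMIs). ND and STZ-HFHC 2 thus lay close together and STZ-HFHC 1 stood apart. At least 1 Spp1 UMI was found in 40.6%, 79.6% and 26.6% of cholangiocyte-like nuclei. With every nucleus thinned to 1000 UMIs, which 28, 92 and 115 of these nuclei reached, the shares were 17.9%, 51.1% and 17.4%.

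Hepatocyte-like nuclei, by contrast, held Spp1 at 0.550, 4.63 and 1.24 CPM. The log2 ratio of the cholangiocyte-like to the hepatocyte-like level was 7.77 ± 0.53 (SD, n = 3 libraries), a ratio between classes made by clustering and therefore given with no test. In ND the next class was macrophage-like at 2.12 CPM (2 UMIs), and its interval overlapped those of all the classes below it. In STZ-HFHC 1 macrophage-like (34.8 CPM, 130 UMIs) and monocyte-like nuclei (32.2 CPM, 41 UMIs) followed and could not be separated from each other. For STZ-HFHC 2 monocyte-like nuclei came next at 19.0 CPM (17 UMIs), above endothelial-like (4.502 CPM), stellate or fibroblast-like (4.25 CPM), B cell-like (3.62 CPM) and macrophage-like nuclei (3.35 CPM, 10 UMIs), among which neighboring intervals overlapped.

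**Figure D1:**
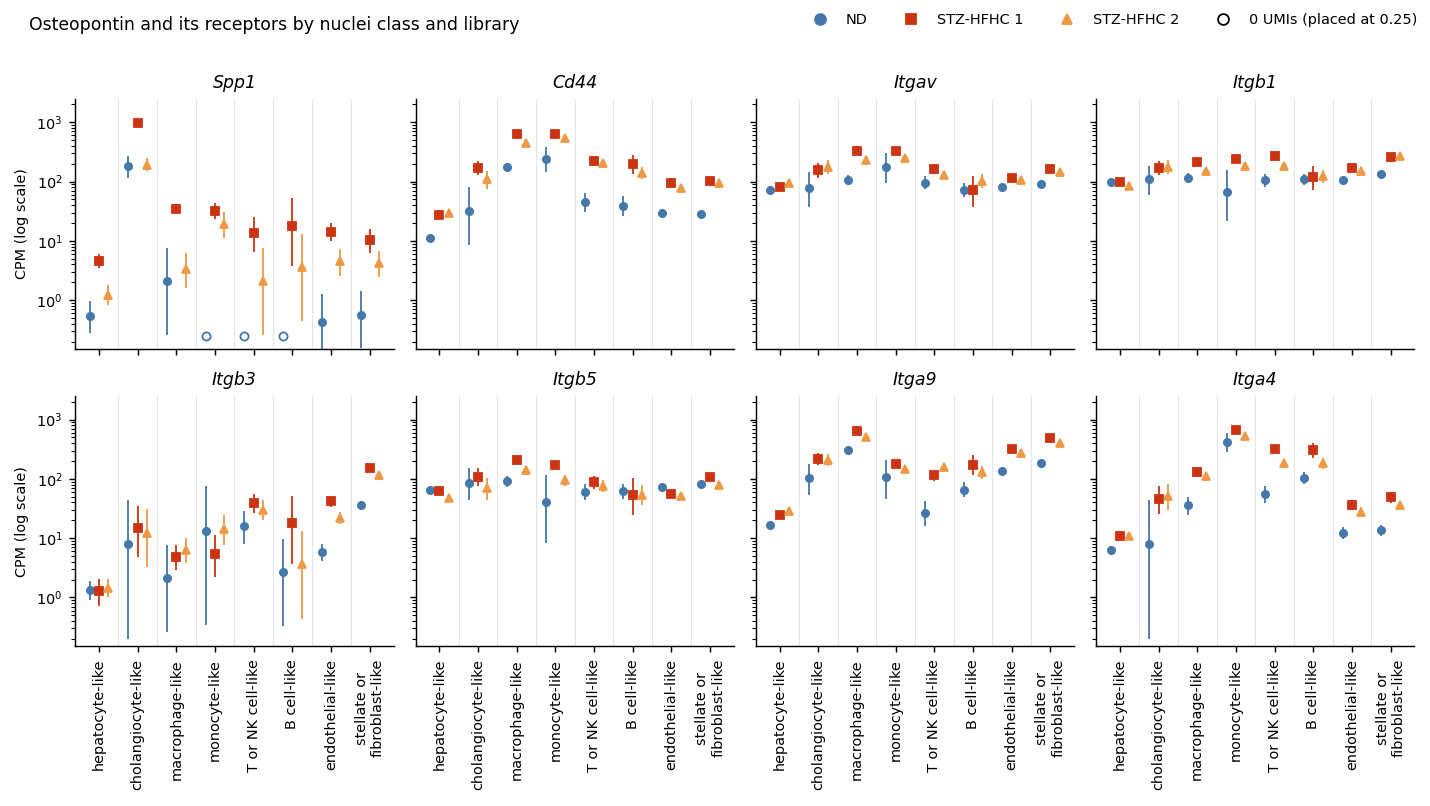
Level of each of the 8 genes (CPM, log axis) in 8 cell classes, with classes on the x axis, 1 point per library and bars for exact 95% Poisson intervals; open points mark 0 UMIs. Spp1 peaks in the cholangiocyte-like class in all 3 libraries (181, 976 and 194 CPM), Cd44 and Itga4 in the monocyte-like class, Itga9 in the macrophage-like class and Itgb3 in the stellate or fibroblast-like class.

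Free RNA in droplet libraries gives UMIs to nuclei that do not express a gene. T or NK cell-like nuclei were taken as the class to compare with, and whether they express Spp1 themselves was not tested. In STZ-HFHC 1, after thinning to 1000 UMIs, 2.37% of macrophage-like nuclei (1.59 to 3.39%) and 3.43% of monocyte-like nuclei held a Spp1 UMI, against 0.392% of T or NK cell-like nuclei (0.00993 to 2.17%), with median depths before thinning of 1974, 1871 and 1535 UMIs. The intervals of these shares overlapped, while those of the CPM did not for macrophage-like (29.1 to 41.3) and T or NK cell-like nuclei (6.53 to 25.04). In STZ-HFHC 2 the share was 0.344% in macrophage-like and 0.340% in T or NK cell-like nuclei (median depths 2016 and 1722 UMIs). The macrophage-like share there was thus not separated from the T or NK cell-like one. The monocyte-like share in STZ-HFHC 2 was 1.31% (0.425 to 3.02%), an interval that overlapped the T or NK cell-like one. Relative to the cholangiocyte-like level, macrophage-like nuclei held 1.17%, 3.56% and 1.73% of Spp1, 0% of the epithelial gene Epcam in each library, and 0%, 0.286% and 0.409% of the chloride channel gene Cftr.

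Cholangiocyte-like nuclei, which held 0.297%, 0.746% and 0.593% of all UMIs, supplied 47.9% (33.3 to 62.8%), 37.9% (34.6 to 41.3%) and 30.6% (24.4 to 37.4%) of the Spp1 UMIs of the libraries. Their intervals overlapped among all 3 livers. The remaining Spp1 UMIs were spread differently in each liver. Hepatocyte-like nuclei held 25%, 6.46% and 13.4%, and macrophage-like nuclei 4.17%, 15.3% and 4.78%. An unnamed cluster led by mitochondrial genes held 9.27% in STZ-HFHC 1 and 13.4% in STZ-HFHC 2. Over all nuclei kept, Spp1 reached 1.12, 19.2 and 3.76 CPM on 48, 852 and 209 UMIs, so the library-wide level was highest in STZ-HFHC 1 and lowest in ND.

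**Figure D2:**
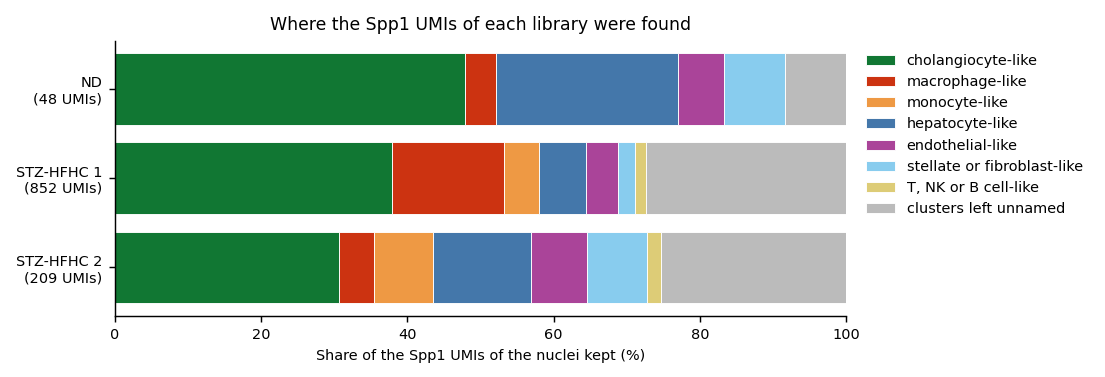
Share of each library's Spp1 UMIs (percent, stacked horizontal bars) held by each cell class or unnamed remainder, for ND (48 UMIs), STZ-HFHC 1 (852 UMIs) and STZ-HFHC 2 (209 UMIs). Cholangiocyte-like nuclei hold 47.9%, 37.9% and 30.6%.

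For the comparison of STZ-HFHC with ND, 56 of the 64 pairs of a gene and a class had at least 50 UMIs over the 3 libraries. The other 8 are given as values only: Spp1 in B cell-like, in T or NK cell-like and in stellate or fibroblast-like nuclei, Itgb3 in B cell-like, cholangiocyte-like, macrophage-like and monocyte-like nuclei, and Itga4 in cholangiocyte-like nuclei. In stellate or fibroblast-like nuclei, which make scar matrix, Spp1 was at 0.564, 10.2 and 4.25 CPM on 4, 20 and 17 UMIs, and in T or NK cell-like nuclei at 0, 13.6 and 2.10 CPM. A pair was called higher or lower where the log2 ratio to ND was at least 1, or −1 or less, in both STZ-HFHC livers, with 0.5 added to each count. This is a rule of size and no test, as ND was 1 library. Of the 56 pairs 23 were called higher and 0 lower, while 9.89% of all 69360 gene-class pairs were called higher and 5.81% lower. The median of the 56 mean log2 ratios was 1.07, or 1.04 with the pair that had 0 UMIs in ND set to the 3 UMIs that a count of 0 allows. The median over all genes tested lay between 0.01 and 0.18 in each class.

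Monocyte-like nuclei had 4 of 7 tested genes called higher, where 11.6% of all genes were called higher and 7.44% lower. In stellate or fibroblast-like nuclei the count was 4 of 7 as well (11.3% higher and 8.52% lower over all genes), and in endothelial-like nuclei 4 of 8 (8.66% and 5.43%). Macrophage-like nuclei had 3 of 7 (14.2% and 5.42%) and T or NK cell-like nuclei 3 of 7 (10.7% and 4.35%). The count was 2 of 6 in cholangiocyte-like (9.83% and 4.84%), 2 of 8 in hepatocyte-like (7.1% and 4.89%) and 1 of 6 in B cell-like nuclei (4.99% and 4.04%). The median log2 ratio of the genes was 1.27 in stellate or fibroblast-like nuclei (0.01 over all genes tested), 1.37 in macrophage-like (0.16) and 0.45 in hepatocyte-like nuclei (0.05), so the hepatocyte-like shift was the smallest of these.

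Scaling by TMM or DESeq2 size factors moved the median of all genes by over 0.1 in 6 classes, for example from 0.18 to −0.02 and −0.01 in T or NK cell-like nuclei, and left 20 pairs called higher and 0 lower. Among all genes called, the share called higher fell with TMM and DESeq2 scaling from 55.3% to 39.6% and 43.8% in B cell-like and from 71.1% to 54.6% and 55.2% in T or NK cell-like nuclei. It fell from 67.0% to 51.8% and 51.8% in cholangiocyte-like, from 61.5% to 49.1% and 50.03% in endothelial-like and from 72.4% to 59.3% and 59.6% in macrophage-like nuclei.

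Spp1 was called higher in 3 classes, none of them the class with the highest level. In hepatocyte-like nuclei 12 UMIs in ND stood against 55 and 28 in STZ-HFHC, giving log2 ratios of 3.03 and 1.14, or an 8.43-fold (4.46 to 17.3) and a 2.25-fold (1.11 to 4.86) difference. In endothelial-like nuclei, which line the sinusoids, Spp1 was at 0.435, 14.3 and 4.502 CPM, a 32.8-fold (10.4 to 166) and a 10.3-fold (2.96 to 55.4) difference that rests on 3 UMIs in ND. Spp1 in T or NK cell-like nuclei, the class compared with above, was at 0, 13.6 (6.53 to 25.04) and 2.10 CPM (0.254 to 7.58). The endothelial-like levels of both STZ-HFHC livers lay within these intervals. Their hepatocyte-like levels (4.63 and 1.24 CPM) lay below the T or NK cell-like values, so neither class was shown to lie above T or NK cell-like nuclei. After thinning to 1000 UMIs, Spp1 was found in 0.138%, 0.446% and 0.130% of hepatocyte-like and in 0%, 0.392% and 0.340% of T or NK cell-like nuclei. Over all nuclei of a library Spp1 moved the same way, at 1.12, 19.2 and 3.76 CPM. Among endothelial-like nuclei with at most 15000 CPM of hepatocyte markers, ND held 0 UMIs of Spp1 against 29 and 9. In monocyte-like nuclei ND held 0 UMIs among 38 nuclei. A count of 0 there allows up to 40.3 CPM, which is above both STZ-HFHC levels, so that call rests on the added 0.5 and no fold is given.

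In cholangiocyte-like nuclei Spp1 was 5.39-fold higher than ND in STZ-HFHC 1 (3.53 to 8.62) and 1.07-fold in STZ-HFHC 2 (0.656 to 1.81), with a mean log2 ratio of 1.24 ± 1.64 (SD, n = 2). In macrophage-like nuclei the log2 ratios were 3.72 and 0.41, with a mean of 2.06 ± 2.34. Neither pair was called, and in both the 2 STZ-HFHC livers differed from each other by more than STZ-HFHC 2 differed from ND. The ND value of the macrophage-like class rests on 2 UMIs. When only macrophage-like nuclei with at most 15000 CPM of hepatocyte markers were used, which left 39 nuclei in ND, the mean log2 ratio became −0.79. That ND value is 1 UMI (13.9 CPM, 0.353 to 77.6), and the STZ-HFHC livers lay on either side of it, at 42.1 and 3.13 CPM.

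**Figure D3:**
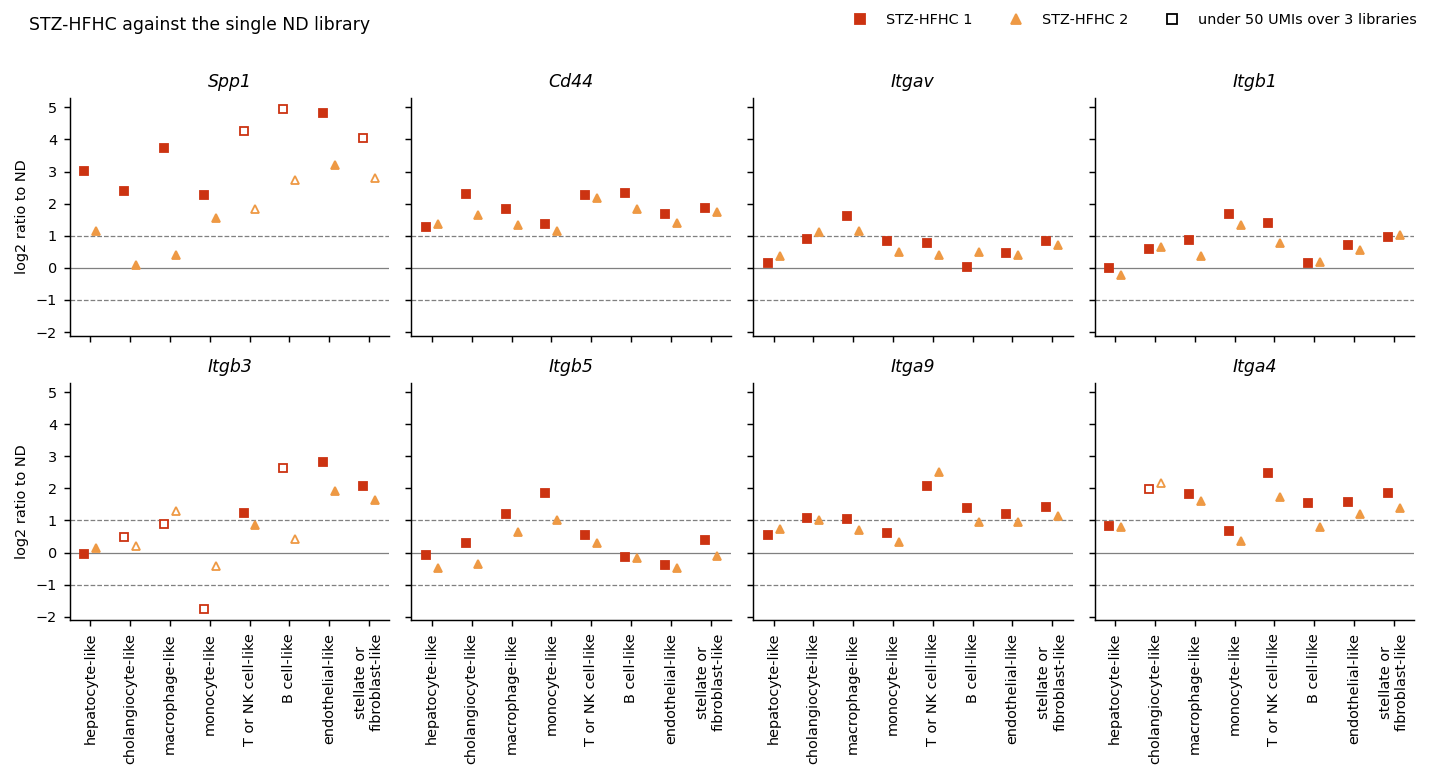
Log2 ratio of STZ-HFHC to ND (y axis) in each class (x axis) for the 8 genes (panels), with 1 point per STZ-HFHC library and dashed lines at the log2 ratios of 1 and −1 used to call a pair. Pairs under 50 UMIs are drawn open, and points with 0 UMIs in ND rest on the added 0.5. Cd44 lies past the line in both libraries in all 8 classes, whereas the Itgb1 and Itgb5 points lie near 0 in hepatocyte-like nuclei.

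Macrophage-like nuclei were divided further with the 8 genes and 7 lipid-associated macrophage (LAM) genes left out of the clustering. Subclusters with at least 20 nuclei in both STZ-HFHC livers were ranked by these LAM genes. The highest of them, called LAM-high here, held 438 and 185 nuclei in the STZ-HFHC livers and 2 in ND. Gpnmb, a lysosomal glycoprotein gene of LAMs, was higher there than in the other macrophage-like nuclei by 3.13 ± 0.64 on the log2 scale. It belongs to the list that picked the subcluster, so this describes the choice. Spp1 was at 60.2 CPM (58 UMIs, 15 of them in 1 nucleus) in STZ-HFHC 1 and at 2.37 CPM (1 UMI) in STZ-HFHC 2. Its log2 ratio to the other macrophage-like nuclei was 1.21 and −0.06, a mean of 0.58 ± 0.90 (SD, n = 2) that did not exceed the spread between the mice. With finer subclusters (resolution 1) the LAM-high ratio was 3.56. A small subcluster led by Actb and Fabp5, with 23 and 6 nuclei in the STZ-HFHC livers, was not ranked. In STZ-HFHC 1 each LAM gene was higher in it than in the LAM-high subcluster, as Gpnmb at 2561 against 1790 CPM. Spp1 was at 451 CPM there, but 34 of its 43 UMIs came from 1 nucleus, as did 120 of the 244 Gpnmb UMIs.

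The receptors were spread otherwise over the same subclusters. Cd44 was at 698 and 524 CPM in the LAM-high subcluster and reached 955 and 1021 CPM in a subcluster led by Gfra2 and Kcnj16, and its log2 ratio of LAM-high to other nuclei was 0.24 ± 0.06. Itga9 was lower in the LAM-high subcluster, at 536 and 453 CPM, than in the Gfra2 subcluster, at 1223 and 1031 CPM, and its LAM-high ratio was −0.28 ± 0.11. The corresponding ratio of Itgav was 0.64 ± 0.08. The subcluster with the lowest Cd44 (178 and 211 CPM) and Itga9 (172 and 231 CPM) in STZ-HFHC was led by hepatocyte-expressed genes such as Abcg8, and 81.8% and 49.8% of its nuclei had high doublet scores. The subcluster of ND nuclei held Cd44 at 168 CPM and Itga9 at 307 CPM.

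**Figure D4:**
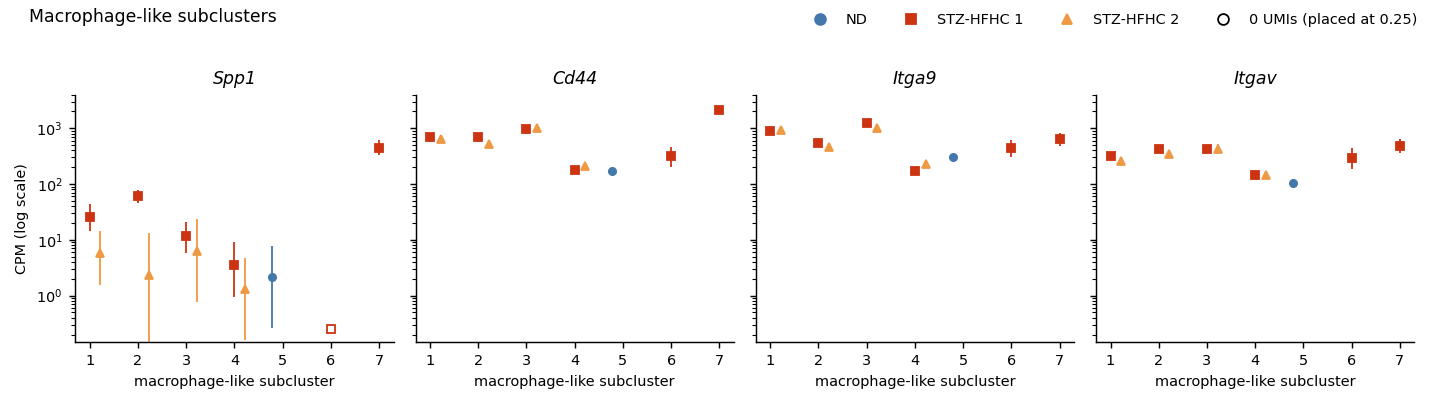
Levels (CPM) of Spp1, Cd44, Itga9 and Itgav on a log axis in subclusters 1 to 7 of macrophage-like nuclei (x axis; 2 is LAM-high, 3 led by Gfra2, 5 the ND nuclei), with 1 point per library of at least 20 nuclei, bars for exact 95% Poisson intervals and an open point for 0 UMIs. Spp1 in the LAM-high subcluster differs between the STZ-HFHC livers (60.2 and 2.37 CPM), while Cd44 lies at 698 and 524 CPM there.

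Cd44 was called higher in STZ-HFHC in all 8 classes. Monocyte-like nuclei had the highest levels, at 242, 636 and 552 CPM. Macrophage-like nuclei were at 177, 631 and 445 CPM, and the intervals of these classes overlapped in ND and STZ-HFHC 1 but not in STZ-HFHC 2. T or NK cell-like nuclei (45.8, 222 and 208 CPM) and B cell-like nuclei (39.1, 197 and 140 CPM) formed the next level among leukocytes. Cholangiocyte-like nuclei held 31.5, 172 and 109 CPM, though with 4 UMIs in ND. Endothelial-like (29.6, 95.3 and 77.9 CPM) and stellate or fibroblast-like nuclei (27.9, 102 and 93.8 CPM) lay close together, and hepatocyte-like nuclei had the lowest levels at 11.2, 27.2 and 29.2 CPM. In every class both STZ-HFHC livers were above ND. Over all nuclei of a library Cd44 moved the same way, at 23.7, 152 and 97.8 CPM, and macrophage-like nuclei made up 2.80%, 15.5% and 8.75% of nuclei. The part of free RNA in the Cd44 levels of the other classes was not tested. The mean log2 ratio ran from 1.26 ± 0.14 in monocyte-like to 2.21 ± 0.07 in T or NK cell-like nuclei, and was 1.33 ± 0.07 in hepatocyte-like nuclei.

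The Cd44 difference depended on which ND nuclei were counted in some classes. Among macrophage-like nuclei with at most 15000 CPM of hepatocyte markers, Cd44 was at 655 CPM in 39 ND nuclei against 756 and 626 CPM, a mean log2 ratio of 0.06 in place of 1.58. In endothelial-like nuclei so limited it was at 56.2, 109 and 96.7 CPM (0.85 in place of 1.54). The ratio stayed past 1 under the limit in monocyte-like (1.48) and stellate or fibroblast-like nuclei (1.27). In B cell-like nuclei it was 2.26, with 2 UMIs in 27 ND nuclei (41.2 CPM, 4.99 to 149). At the finer clustering resolution of 2, which left 48 ND nuclei in the T or NK cell-like class, the ratio there was −0.17.

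Itga4, the α chain of the leukocyte integrin that binds VCAM1 as well as cleaved osteopontin, was highest in monocyte-like nuclei, at 416, 679 and 538 CPM, with no overlap with the next class in any library. That class was not called (mean log2 ratio 0.52 ± 0.24). T or NK cell-like nuclei rose from 56.1 CPM to 316 and 188 CPM (2.10 ± 0.53) and macrophage-like nuclei from 36.0 CPM to 130 and 111 CPM (1.72 ± 0.16). Both turned with the choice of nuclei, to −0.42 in T or NK cell-like nuclei at resolution 2 and to −0.34 in macrophage-like nuclei with at most 15000 CPM of hepatocyte markers. Stellate or fibroblast-like (13.5, 48.6 and 35.8 CPM) and endothelial-like nuclei (12.3, 36.7 and 28.1 CPM) were also called higher, from lower levels. In B cell-like nuclei the levels of 105, 305 and 183 CPM gave log2 ratios of 1.54 and 0.80, short of the rule in STZ-HFHC 2.

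Itga9, the α chain shared by receptors for osteopontin, tenascin C and SVEP1, was highest in macrophage-like nuclei, at 313, 650 and 513 CPM. Stellate or fibroblast-like (187, 495 and 411 CPM) and endothelial-like nuclei (138, 320 and 269 CPM) followed in that order in all 3 libraries without overlap. Of these classes the stellate or fibroblast-like one was called higher, with 1.27 ± 0.19 on the log2 scale. Macrophage-like nuclei reached 1.05 and 0.71 and endothelial-like nuclei 1.22 and 0.96, so that STZ-HFHC 2 missed the rule in both. With at most 15000 CPM of hepatocyte markers, macrophage-like nuclei held 864 CPM (662 to 1107) in 39 ND nuclei against 779 and 693 CPM. Both STZ-HFHC livers thus lay below ND there. Endothelial-like nuclei so limited held 293, 391 and 349 CPM. T or NK cell-like nuclei were called at lower levels (26.6, 114 and 156 CPM), as were cholangiocyte-like nuclei (102, 221 and 212 CPM, with 13 UMIs in ND). The cholangiocyte-like call was lost with TMM (log2 ratios of 0.86 and 0.81) and with DESeq2 size factors (0.86 and 0.81).

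Itgav, the α chain common to the Arg-Gly-Asp receptors, was counted in every class. Its highest levels were in monocyte-like (175, 324 and 253 CPM) and macrophage-like nuclei (106, 323 and 235 CPM), whose intervals overlapped in each library. Of the 8 classes the macrophage-like one was called higher, with a mean log2 ratio of 1.37 ± 0.33. That call was lost with TMM (1.40 and 0.96) and DESeq2 size factors (1.42 and 0.95), and with at most 15000 CPM of hepatocyte markers the levels were 279, 369 and 298 CPM. Hepatocyte-like nuclei held 73.3, 81.6 and 95.5 CPM, a mean ratio of 0.27 ± 0.16.

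Among the β chains Itgb3, a partner of Itgav, was highest in stellate or fibroblast-like nuclei, at 36.8, 155 and 115 CPM, with no overlap with the next class in any library, and was called higher there (1.86 ± 0.31). Endothelial-like nuclei rose from 5.80 CPM to 41.7 and 22.2 CPM (2.38 ± 0.64). Hepatocyte-like nuclei stayed between 1.26 and 1.46 CPM, and macrophage-like nuclei held 2.12, 4.82 and 6.36 CPM with 2 UMIs in ND. Itgb1, the common β chain that pairs with Itga4, Itga9 and Itgav, was counted in each class, and intervals of neighboring classes mostly overlapped. Stellate or fibroblast-like nuclei held 133, 257 and 268 CPM and missed the rule in STZ-HFHC 1 (0.95 and 1.02), and the only call was in monocyte-like nuclei (67.1, 238 and 186 CPM, with 5 UMIs in ND). Hepatocyte-like nuclei held 97.7, 98.3 and 84.4 CPM.

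Itgb5, another partner of Itgav, was highest in macrophage-like nuclei at 91.1, 212 and 144 CPM, and its interval overlapped that of the next class in ND only. It was called in monocyte-like nuclei (40.3, 170 and 95.02 CPM), where ND held 3 UMIs. With TMM or DESeq2 scaling that call was lost, at mean log2 ratios of 1.38 and 1.34. In endothelial-like (72.6, 56.0 and 52.3 CPM) and hepatocyte-like nuclei (66.1, 62.4 and 47.7 CPM) both STZ-HFHC levels lay below ND under each scaling, by less than the rule asks.

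A quasi-likelihood test in edgeR on the class sums, in which the lone ND library is assumed to vary as the STZ-HFHC libraries do, called 12 of the 56 pairs higher at a Benjamini-Hochberg adjusted p under 0.05, beside 4.58% of all gene-class pairs higher and 5.02% lower. They comprised 6 genes in stellate or fibroblast-like nuclei (15.8% of genes there), 3 in T or NK cell-like (6.92%), 2 in endothelial-like (2.93%) and 1 in B cell-like nuclei (3.9%). In hepatocyte-like, macrophage-like, monocyte-like and cholangiocyte-like nuclei edgeR called 0 of these genes (1.26%, 1.3%, 0.0304% and 0% of all genes called higher), with unadjusted p under 0.05 for 1, 3, 2 and 1, respectively. The smallest adjusted p of Cd44 was 2.35e-09, in stellate or fibroblast-like nuclei (edgeR, log2 fold change 1.78), against 0.0633 in hepatocyte-like nuclei.

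The stellate or fibroblast-like class could be compared within a cluster that held nuclei of all 3 livers. That cluster, number 5, held 146, 635 and 1317 nuclei, and its hepatocyte markers were at 10900, 8591 and 10565 CPM. Cluster 12 held 1051 further ND nuclei with 18794 CPM of hepatocyte markers. Within the shared cluster Cd44 was still called higher, at 43.0, 101 and 93.6 CPM (1.14 ± 0.08), where 6.05% of all genes were called higher and 4.79% lower. Itga9, in contrast, was at 584 CPM in ND against 495 and 411 CPM in the diseased livers, and its mean log2 ratio of −0.38 ± 0.19 had the opposite sign to the whole class. Itgb3 was at 97.4, 156 and 115 CPM (0.44 ± 0.31), and Itga4 at 25.8, 48.1 and 35.5 CPM. Itgb1 was at 298, 257 and 269 CPM (−0.19 ± 0.05, against 0.98 in the whole class), and Itgb5 at 126, 108 and 77.6 CPM (−0.47 ± 0.34, against 0.14). None of these 4 genes was called. In the ND cluster with more hepatocyte RNA the levels were lower, with Itga9 at 166 CPM, Itgb3 at 33.7 CPM and Cd44 at 27.2 CPM. The class-wide directions of Itga9 and Itgb1 were thus not seen within the shared cluster, whereas that of Cd44 was. For Itgb5 the STZ-HFHC livers already lay on either side of ND in the whole class (log2 ratios of 0.38 and −0.10). Itgav, with log2 ratios of 0.84 and 0.71 in the whole class, had 0.08 and −0.06 within the shared cluster.

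**Figure D5:**
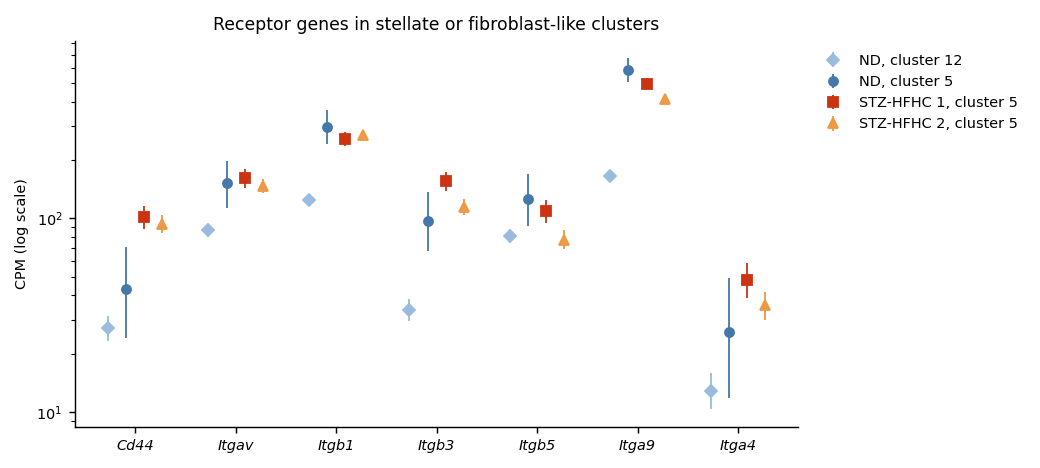
Levels (CPM) of the 7 receptor genes on a log axis in stellate or fibroblast-like nuclei of cluster 5, shared by the 3 livers, and of cluster 12, the ND cluster with more hepatocyte RNA, with exact 95% Poisson intervals. In the shared cluster ND has the highest Itga9 (584 CPM) and the lowest Cd44 (43.0 CPM).

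With all classes but the hepatocyte-like one limited to nuclei of at most 15000 CPM of hepatocyte markers, 9 pairs were called higher. This left 191 endothelial-like, 420 stellate or fibroblast-like, 39 macrophage-like, 27 B cell-like and 25 monocyte-like nuclei in ND, and fewer than 20 T or NK cell-like and cholangiocyte-like nuclei, which were then not compared. No pair of 7 was called in macrophage-like nuclei (12.7% of all genes were), while 2 of 7 were in stellate or fibroblast-like (5.21%), 2 of 7 in monocyte-like (13.9%), 1 of 7 in endothelial-like (5.5%) and 2 of 4 in B cell-like nuclei (6.39%).

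An integrin needs both of its chains, so nuclei with a UMI of each were counted after thinning to 1000 UMIs. Itga9 and Itgb1 were found together in 4.77%, 10.1% and 9.58% of stellate or fibroblast-like nuclei, in 4.95%, 11.2% and 6.54% of macrophage-like nuclei and in 2.03%, 6.75% and 4.54% of endothelial-like nuclei. Without thinning, at the nuclei's own depths, the stellate or fibroblast-like shares were 30.8%, 35.2% and 31.3%. Itga4 and Itgb1 were counted together in 3.45%, 7.94% and 8.62% of monocyte-like nuclei (10.5%, 21.3% and 16.9% unthinned). Itgav and Itgb3 were together in 0.450%, 2.15% and 1.02% of stellate or fibroblast-like nuclei, and unthinned 8.10%, 11.9% and 8.86%, against at most 3.08% of any other class. Itgav and Itgb5 were together in 2.20%, 5.96% and 3.33% of macrophage-like nuclei. Free RNA and doublets, which were not removed, can also place a UMI of each chain in a nucleus.

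Other genes of osteopontin biology, in lists of ligands, processing enzymes, other integrin chains, adaptors and LAM genes, were read by the same rule. Over all gene-class pairs 9.89% were called higher and 5.81% lower. Of 36 tested pairs of the 10 other ligands of these receptors, 11 were called higher and 12 lower, with a median log2 ratio of 0.33 (0.17 with Vcam1 in monocyte-like nuclei, at 0 in ND, set to the 3 UMIs a count of 0 allows). Fibronectin (Fn1) made up 7 of the lower calls, for example at 779, 303 and 290 CPM in stellate or fibroblast-like and 864, 353 and 300 CPM in hepatocyte-like nuclei, and vitronectin (Vtn) the other 5. Both are plasma proteins made by hepatocytes, and Fn1 in ND was at 755 to 870 CPM in each class where it was called. The hepatocyte marker sums of the non-hepatocyte classes were lower in STZ-HFHC as well, and their part in these calls was not tested. Vcam1, the endothelial ligand of Itga4, was called higher in 5 classes, with 13.9, 48.6 and 43.6 CPM in endothelial-like and 37.1, 128 and 100 CPM in macrophage-like nuclei.

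In stellate or fibroblast-like nuclei 3 further matrix ligands were called higher. Tnc, the Itga9 ligand tenascin C, was at 1.27, 50.6 and 30.3 CPM. Svep1, another Itga9 ligand, was at 2.54, 48.1 and 28.3 CPM, and Thbs1, thrombospondin, at 0.706, 18.4 and 20.01 CPM. Itga8, an Itgb1 partner of contractile cells, rose there too, from 59.0 to 195 and 155 CPM. These genes were compared over the whole class and not within the shared cluster, where the class-wide directions of Itga9 and Itgb1 were not seen.

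Among the other integrin chains as a list, 3 of 14 tested pairs were called higher and 3 lower, with a median log2 ratio of −0.16. The shares over all gene-class pairs were 9.89% higher and 5.81% lower. The lower calls were all of Itga5, the fibronectin receptor chain, as in hepatocyte-like nuclei (67.5, 26.2 and 26.9 CPM). Of 31 pairs of the 8 processing genes 1 was called higher and 4 lower (median −0.39). The higher call was of Fam20c, the kinase that phosphorylates secreted osteopontin, in monocyte-like nuclei (26.9, 133 and 118 CPM, with 2 UMIs in ND). The lower calls were of F2, the hepatocyte gene for prothrombin, in endothelial-like, macrophage-like, monocyte-like and stellate or fibroblast-like nuclei. Hepatocyte-like nuclei had no lower call of this list. The hepatocyte marker sums of those classes were lower in STZ-HFHC as well, and their part in the F2 calls was not tested.

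Of 51 pairs of the 8 intracellular adaptors 7 (13.7%) were called higher and 0 lower (median 0.13). Over all gene-class pairs 9.89% were called higher and 5.81% lower, so the adaptor share of higher calls was near that of all genes. Fermt3, the hematopoietic integrin activator kindlin-3, was at 41.3, 153 and 103 CPM in macrophage-like nuclei, and the kinase gene Src at 7.62, 37.3 and 29.3 CPM in stellate or fibroblast-like nuclei. The LAM genes had 27 of 32 pairs called higher and 0 lower (median 3.83, or 2.85 with the 9 pairs at 0 in ND set to 3 UMIs), in macrophage-like nuclei 7 of 7. The study described LAM genes in these same libraries, so this count is not independent evidence of their direction. Gpnmb there went from 1.06 CPM (1 UMI) to 670 and 338 CPM. LAM genes were called in 6 classes, including hepatocyte-like nuclei, where Gpnmb was at 0.0916, 16.9 and 5.08 CPM.

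The genes whose levels followed each member most closely were ranked by Pearson's r of log2(CPM + 1) over 24 sums (8 classes in 3 libraries) among 13895 genes. These points share libraries and depth, and r is given as a description. For Spp1 they were Adam33 (0.907), Prdm16 (0.903) and Elovl7 (0.895). Cd44 was followed by Arhgap25 (0.974), Fyb (0.971) and Ppm1h (0.970), and Itga4 by Fmnl1 (0.984), Arhgap15 (0.983) and Gm26740 (0.976). Itga9 was nearest to Rgl1 (0.965), Ptprm and Frmd4a, Itgav to Npc2 (0.935), Arhgap39 and Metrnl, and Itgb1 to Clasp2 (0.908), E130307A14Rik and Cd200r1. Itgb3 was nearest to Peak1 (0.887), Ccdc80 and Nbea. The lowest leading value was that of Itgb5 with 4930455G09Rik (0.832), followed by Slc11a1 and Dnmt3a.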

How the data were processed

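Liver nuclei of 1 ND and 2 STZ-HFHC mice were profiled in 3 libraries of the 10x Chromium 3′ chemistry. The deposited matrices hold raw UMI counts per gene and barcode, made by the authors with Cell Ranger 7.0.1 on mm10 (submitters' processing notes), with replicates not pooled. They held 30989 barcodes, the number the study states after its filter. Its stated limits (200 to 5000 genes, at most 5% mitochondrial counts) left 28336 here, with 42715797, 44350401 and 55632923 UMIs. A class share of 0 was read against 3 counts.

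Counts were scaled per nucleus to 10000 and clustered with scanpy 1.11.5 (2000 variable genes, 30 components, 15 neighbors, Leiden resolution 1, leidenalg 0.10.2). The 8 genes, the LAM list and the genes the study centers on were left out. Classes rest on rebuilt names, so a difference from the study may come from them. Scrublet called 0, 1 and 0 doublets and had not worked, so no nuclei were removed, and the highest 8% of scores were left out as an alternative. Class sums were compared by the rule of size. Alternatives used edgeR 4.0.16 (quasi-likelihood test, Benjamini-Hochberg adjustment over all genes of a class) and DESeq2 1.42.0 size factors in R 4.3.3. The count test was checked on simulated data. Coordinates and the coding sequence are from GRCm38 and GENCODE M21, where 32158 of 32285 gene IDs (99.6%), and 8 of 8 members, were found. Intervals are exact (Poisson, Clopper-Pearson, conditional binomial).

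The members, pathway lists and marker lists were chosen with earlier results of these data known. The genes named are the 8 members, the genes of the pathway lists and the 3 genes most like each member. Subclusters and clusters were described by their leading genes after their values were seen.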

Additional observations from a re-analysis of the deposited data

Results flagged for a closer look

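Itgb5 moved in opposite directions in different classes. Its mean log2 ratio of STZ-HFHC to ND was −0.42 in endothelial-like nuclei, below 0 in both livers, and 1.44 in monocyte-like nuclei, above 0 in both. The difference between the classes was not tested, and the monocyte-like ND level rests on 3 UMIs.

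Barcodes outside the limits on genes and mitochondrial counts (930, 1002 and 721 in ND, STZ-HFHC 1 and STZ-HFHC 2), which enter no comparison of the report, also held 6 of the 8 genes above their ND level in both STZ-HFHC livers, 5 of them with counting intervals clear of that of ND. There Spp1 was at 6.69 and 2.25 CPM (0.516 in ND) and Cd44 at 81.8 and 98.8 CPM (22.6). Itgav was at 96.4 and 111 CPM (81.2), Itga9 at 122 and 162 CPM (99.7) and Itga4 at 26.7 and 32.8 CPM (11.7). Itgb1 was at 128 and 114 CPM (110), where the interval of STZ-HFHC 2 overlapped that of ND. These differences were not tested.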

How the results depend on the processing

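No paired analysis was possible because ND carries no replicate number in the labels. The count of 0 pairs called lower was the same under every alternative run. The count called higher, 23, became 12 with the edgeR test, 15 with nuclei thinned to 1000 UMIs, 13 at resolution 0.5 and 9 with the other classes limited to 15000 CPM of hepatocyte markers. Fewer pairs could be compared in the last 2. At resolution 0.5 the endothelial-like and monocyte-like classes, with 4 of the 23 calls each, were missing. Under the limit the T or NK cell-like (3 calls) and cholangiocyte-like classes (2 calls) were missing. Shares over all genes are not given for thinning or resolution 0.5, so those counts are not set against a background. The limit on hepatocyte markers, the shared stellate cluster, the naming of cluster 2 and the removal of the nucleus with the most Spp1 were chosen after seeing the data. The same limit turned the Spp1 ratio of macrophage-like nuclei (2.06) to −0.79, and subclustering at resolution 1 moved the LAM-high Spp1 ratio from 0.58 to 3.56. Signs reversed for Itga9 (−0.38), Itgb1 (−0.19) and Itgb5 (−0.47) in the shared stellate cluster, for Itga4 in macrophage-like nuclei under the limit (−0.34) and at resolution 0.5 (−0.68), and for Cd44 (−0.17) and Itga4 (−0.42) in T or NK cell-like nuclei at resolution 2, where 48 ND nuclei remained in that class. Itga9 in macrophage-like nuclei also turned under the limit, to 864 CPM in ND against 779 and 693 CPM. The cause of these reversals was not tested. Leaving out each STZ-HFHC liver gave 21 to 29 pairs higher, 0 to 0 lower, and log2 ratios of Spp1 from 0.08 to 2.40 (cholangiocyte-like), 1.14 to 3.03 (hepatocyte-like), 0.41 to 3.72 (macrophage-like) and −0.06 to 1.21 (LAM-high). The Spp1 ratio of cholangiocyte-like to hepatocyte-like nuclei stayed between 7.51 and 8.02, and without either STZ-HFHC liver was 7.81 to 8.02. Values for macrophage-like nuclei at resolution 2 (14 ND nuclei), endothelial-like and monocyte-like nuclei at resolution 0.5, and T or NK cell-like and cholangiocyte-like nuclei under the limit were not obtained, as fewer than 20 nuclei were left in a library. Depth limits ND most, where 0 to 5 UMIs stand behind several monocyte-like and cholangiocyte-like values.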
